A study of Homo sapiens with 6 samples.

Results

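The nuclear genes for the subunits of oxidative phosphorylation were examined in 6 peak lists from CUT&Tag, an assay in which an antibody-tethered transposase inserts sequencing adapters beside its target on chromatin. The members were the protein-coding genes of RefSeq GRCh38.p14 whose symbols begin with NDUFA, NDUFB, NDUFC, NDUFS or NDUFV and a digit, the 4 genes SDHA to SDHD, and the symbols beginning with UQCR, COX4 to COX8 or ATP5. They numbered 87 of 19866 protein-coding genes on the 24 chromosomes, with 37 in complex I, 4 in complex II, 9 in complex III, 17 in complex IV and 20 in complex V. All libraries came from HepG2, an established liver cancer cell line, and the labels name no edit or treatment. The antibodies were against H4K12la (lactylation of lysine 12 of histone H4), HDAC1 (a histone deacetylase) or ENO1 (the glycolytic enzyme enolase 1), with 2 replicate libraries for each target. By its design text the study addressed the effect of lactylation that depends on ENO1 and HDAC1 on transcription. The labels do not say whether replicates were separate cultures, so their spread may be technical. On the 24 chromosomes replicates 1 and 2 held 5459 and 7568 peaks for H4K12la, 5727 and 4567 for HDAC1, and 1592 and 1189 for ENO1. Reads were not used, so depth is unknown, the lists' lengths limit what each can show, and the lack of a peak is not the lack of signal. No control library was analysed here. Of 12 liver marker genes, 2 had a gene-end peak of H4K12la in both replicates, against 10.5% of all protein-coding genes. These were HNF4A (3.55-fold and 3.34-fold in replicates 1 and 2) and FOXA1 (3.31-fold and 2.77-fold). ALB and AFP had none in any library. None of 10 marker genes of blood, neurons, muscle, fibroblasts and endothelium had one in any library, against 29.1% of all protein-coding genes with one. With so few marker genes these counts are no result about cell identity.

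Oxidative phosphorylation passes electrons from NADH, at complex I, or from succinate, at complex II, through complex III to oxygen at complex IV. Complexes I, III and IV pump protons across the inner mitochondrial membrane, and complex V, the ATP synthase, uses the gradient to make ATP. Most subunits are encoded in the nucleus, and the promoters of such genes are known for binding sites of NRF1, of the ETS-family factor GABP, of YY1 and of SP factors. Hepatocytes rely strongly on this pathway, and many liver tumours make more lactate than their tissue of origin.

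H4K12la marked the ends of these genes at about the rate of 1 in 5, HDAC1 at fewer, and ENO1 at none. A gene was counted for a library when a peak lay within 1 kb of either annotated end, and called when both replicates of a target had such a peak. H4K12la was called at 19 of 87 members (21.8%), against 10.5% of all protein-coding genes. HDAC1 was called at 10 members (11.5%), against 8.18% of all genes, and the share of members lay close to that background. ENO1 had a gene-end peak at 0 members in either replicate, which allows a share of up to 3.45% by counting error alone. ENO1 was called at 0.0654% of all genes, so 0 members is no result about them. The nearest ENO1 peak to any member lay 6.56 kb from an end of NDUFA10 in replicate 1 and 22.7 kb from an end of UQCR11 in replicate 2.

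Library by library, H4K12la replicates 1 and 2 had a peak at 21 and 34 members, against 13.5% and 19.5% of all genes. HDAC1 replicates 1 and 2 had one at 21 and 12 members, against 14.8% and 10.1% of all genes, while ENO1 replicates 1 and 2 marked 0.166% and 0.101% of all genes. H4K12la and HDAC1 thus marked equally many members in replicate 1, and H4K12la marked more in replicate 2. The mean share of members with a peak was 31.6% ± 10.6 for H4K12la and 19.0% ± 7.31 for HDAC1 (SD, n = 2 libraries each), a difference of 12.6 percentage points (two-sided exact permutation p = 0.667). Over all genes the same means were 16.5% ± 4.28 and 12.5% ± 3.36. H4K12la exceeded ENO1 by 31.6 points and HDAC1 exceeded ENO1 by 19.0 points, in 2 of 2 libraries each (exact permutation p = 0.333 each). That is the smallest p that 2 against 2 libraries allow, so none of these 3 comparisons can pass 0.05, and after Benjamini-Hochberg adjustment over them the exact p values were 0.667, 0.5 and 0.5. With each list held to its 1189 strongest peaks, the length of the shortest, H4K12la exceeded HDAC1 by 2.30 points, and they exceeded ENO1 by 5.17 and 2.87 points.

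**Figure D1:**
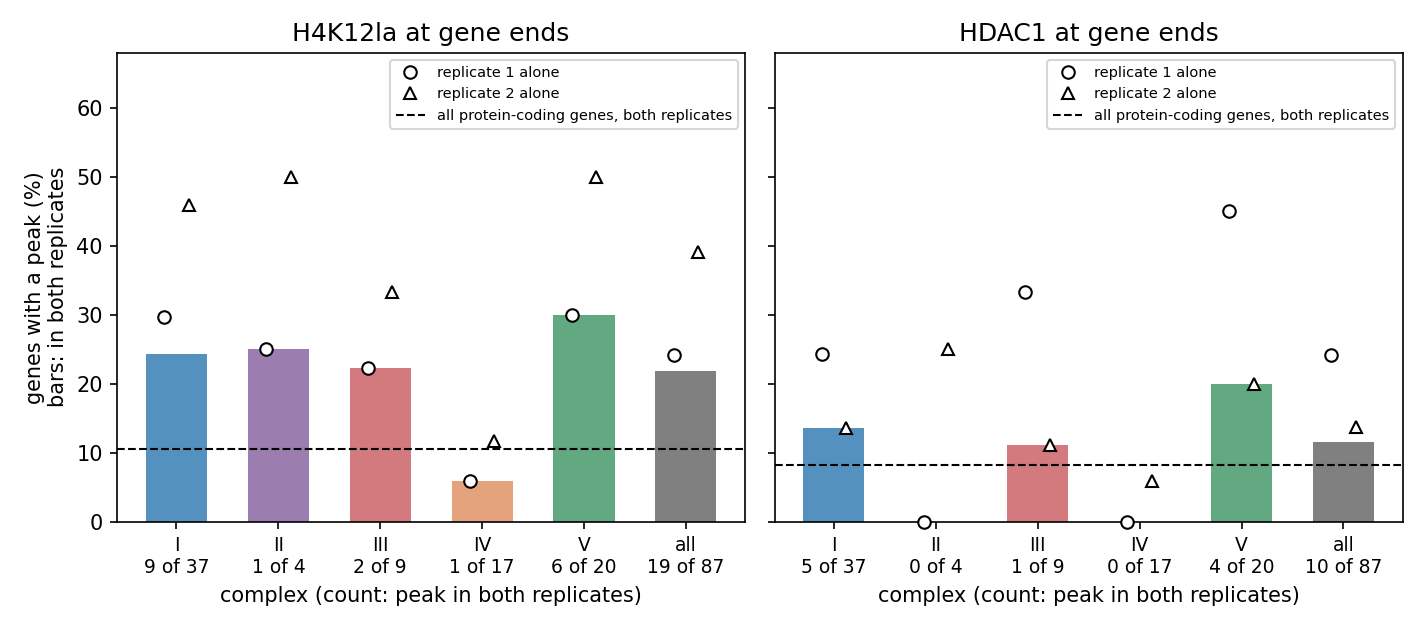
Share of genes with a gene-end peak of H4K12la (left) and HDAC1 (right) in complexes I to V and over all members; bars give genes with a peak in both replicates, circles and triangles replicates 1 and 2 alone, and the dashed line the share of all protein-coding genes called in both replicates. Complex V has the tallest bar in both panels (6 and 4 of 20 genes), and complex IV stands below the dashed line in both (1 and 0 of 17 genes).

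Together, 43 of the 87 members (49.4%) had a gene-end peak in at least 1 library, as did 29.1% of all protein-coding genes, and 44 had none. Complexes I, II, III and V held called H4K12la at 22.2% to 30% of their genes, and complex IV at 1 of 17. Called HDAC1 was found in complex V (4 of 20), complex I (5 of 37) and complex III (1 of 9), and at no gene of complexes II or IV. With so few genes in complexes II and III, 1 gene moves the share by 25 or 11.1 percentage points, and differences between complexes were not tested. Both targets were called at 6 members, which is 31.6% of the members with H4K12la and 60% of those with HDAC1; over all genes the shares were 30.4% and 38.8%. These 6 were NDUFA2 and NDUFA6 of complex I, UQCRC2 of complex III, and ATP5PB, ATP5PD and ATP5PF of complex V.

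**Figure D2:**
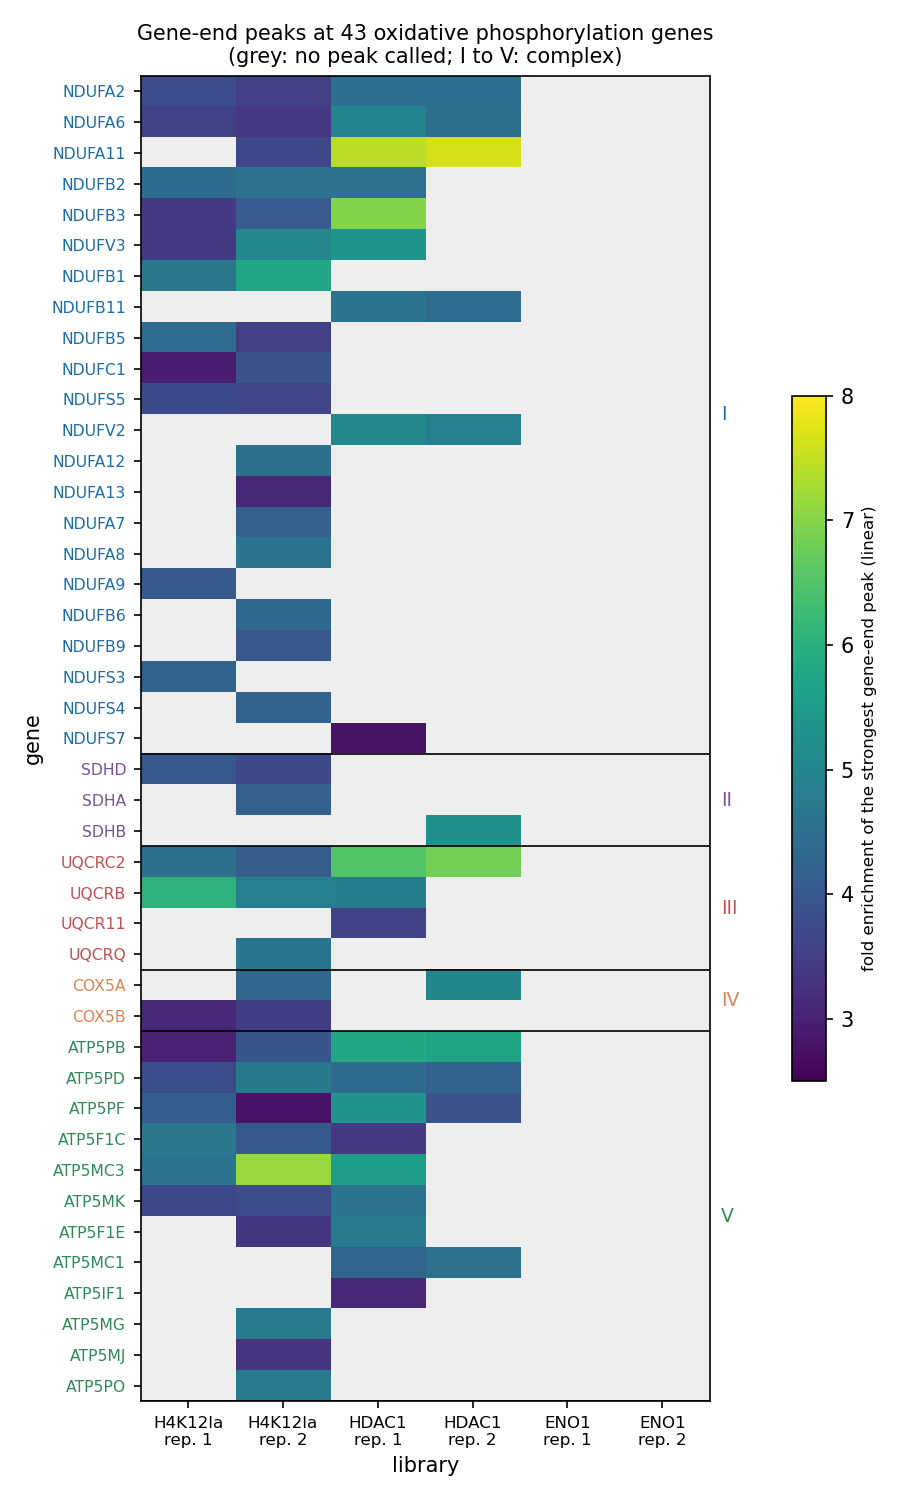
Fold enrichment (colour, linear scale) of the strongest gene-end peak at the 43 members with a peak in any library, by library, with genes grouped by complex and grey where no peak was called. The ENO1 columns are empty, the highest HDAC1 values are those of NDUFA11 (7.42-fold and 7.66-fold), and several genes have a peak in H4K12la replicate 2 alone.

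In complex I, which takes electrons from NADH, called H4K12la lay at 9 of 29 accessory subunit genes and at 0 of the 7 core subunit genes, which form the conserved catalytic part encoded in the nucleus. The share of all genes was 10.5%, so 0 of 7 is no result about core genes, and the difference between these groups was not tested. Fold values here and below are the authors' peak caller's own, the summit signal over that library's background. They were not scaled between libraries, so values of different replicates or targets are given side by side and not as a change in signal. NDUFB1, a small membrane-arm subunit gene (chromosome 14, 92116123 to 92121706), was highest of these, with 4.69-fold and 5.74-fold of H4K12la in replicates 1 and 2 and no HDAC1 peak. NDUFB2, also of the membrane arm, had 4.45-fold and 4.55-fold of H4K12la, and HDAC1 in replicate 1 only (4.58-fold). NDUFB5 of the same arm had 4.49-fold and 3.54-fold of H4K12la. All 3 of these genes had H4K12la in both replicates, and NDUFB2 alone also had HDAC1. NDUFB3 had 3.43-fold and 4.07-fold of H4K12la, and an HDAC1 peak of 6.98-fold in replicate 1 that had no counterpart in replicate 2. NDUFV3, an accessory gene of the NADH-binding module, likewise had 3.43-fold and 5.05-fold of H4K12la and HDAC1 in replicate 1 only (5.39-fold). NDUFS5, an accessory subunit despite its letter, had 3.74-fold and 3.68-fold of H4K12la, a close match between replicates. NDUFC1 had 2.96-fold and 3.90-fold, near the low end of all H4K12la genes, and its peaks in both replicates lay 865 bp apart at their summits.

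HDAC1 in complex I was led by NDUFA11, a membrane-arm subunit gene (chromosome 19, 5891229 to 5903790), with 7.42-fold and 7.66-fold in replicates 1 and 2, rank 42 of the 1626 genes called for HDAC1 by the lower replicate. H4K12la was found there in replicate 2 only (3.68-fold). NDUFV2, which carries an iron-sulfur cluster of the NADH-binding module, was the only core subunit gene called for either target, with HDAC1 at 5.05-fold and 4.87-fold and no H4K12la peak. NDUFB11 on chromosome X had 4.62-fold and 4.46-fold of HDAC1 and no H4K12la peak. NDUFA2, of the matrix arm, carried H4K12la at 3.79-fold and 3.55-fold and HDAC1 at 4.51-fold and 4.50-fold. NDUFA6, a matrix-arm subunit of the LYR-motif family, carried H4K12la at 3.59-fold and 3.42-fold and HDAC1 at 4.97-fold and 4.53-fold. These 5 were the complex I genes called for HDAC1, and NDUFA2 and NDUFA6 were the pair called for both targets. Of the core genes, NDUFS3 had H4K12la in replicate 1 only (4.25-fold) and NDUFS7 HDAC1 in replicate 1 only (2.78-fold), while NDUFS1, NDUFS8 and NDUFV1 had no gene-end peak in any library. The strongest H4K12la peaks of a single replicate were at NDUFA8 (4.63-fold) and NDUFA12 (4.53-fold), both in replicate 2.

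The promoters of both leading genes of complex I are shown because their peaks reach into them, each as the RefSeq GRCh38.p14 sequence from 250 bases before to 50 after an annotated start, 5′ to 3′ along the gene. Capitals, here and in the promoters further on, mark the motifs searched on both strands, CCGGAA (ETS family, as GABP), AAGATGG (YY1), GCGCNNGCG (NRF1) and GGGCGG (SP family). NDUFB1 lies at chr14:92121657-92121956, minus strand, and NDUFA11 at chr19:5903741-5904040, minus strand.
NDUFB1: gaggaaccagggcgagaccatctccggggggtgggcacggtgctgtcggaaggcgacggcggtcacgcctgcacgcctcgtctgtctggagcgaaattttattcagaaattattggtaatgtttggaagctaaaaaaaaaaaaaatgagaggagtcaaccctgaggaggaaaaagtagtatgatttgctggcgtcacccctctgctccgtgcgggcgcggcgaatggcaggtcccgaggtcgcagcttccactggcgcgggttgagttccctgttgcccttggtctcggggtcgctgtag
NDUFA11: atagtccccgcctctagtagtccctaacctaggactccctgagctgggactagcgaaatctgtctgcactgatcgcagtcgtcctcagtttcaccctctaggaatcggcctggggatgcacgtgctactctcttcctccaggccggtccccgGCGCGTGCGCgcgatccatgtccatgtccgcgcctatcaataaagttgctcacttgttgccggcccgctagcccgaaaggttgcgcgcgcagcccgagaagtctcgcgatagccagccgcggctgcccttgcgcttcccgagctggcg
The NDUFB1 window holds none of the 4 motifs, and that of NDUFA11 holds an NRF1 motif read on both strands, a pair of overlapping matches. The NDUFA11 peaks of HDAC1 lay at -1087 to -136 bp and -1087 to -221 bp from the start in replicates 1 and 2 (negative values lie before it), so they cover only the outer part of this window.

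Complex II, succinate dehydrogenase, is shared with the citric acid cycle and has 4 subunit genes. SDHD, a membrane anchor subunit gene (chromosome 11, 112086873 to 112095794), was the only one called, with H4K12la at 4.01-fold and 3.71-fold and no HDAC1. SDHA, the flavoprotein subunit, had H4K12la in replicate 2 only (4.18-fold), and SDHB, the iron-sulfur subunit, HDAC1 in replicate 2 only (5.28-fold). SDHC had no gene-end peak in any library. The SDHD promoter (chr11:112086623-112086922, plus strand) is shown as that of the only called gene of the complex; its H4K12la peaks span the start, at -555 to 217 bp from it in replicate 1 and -553 to 225 bp in replicate 2.
SDHD: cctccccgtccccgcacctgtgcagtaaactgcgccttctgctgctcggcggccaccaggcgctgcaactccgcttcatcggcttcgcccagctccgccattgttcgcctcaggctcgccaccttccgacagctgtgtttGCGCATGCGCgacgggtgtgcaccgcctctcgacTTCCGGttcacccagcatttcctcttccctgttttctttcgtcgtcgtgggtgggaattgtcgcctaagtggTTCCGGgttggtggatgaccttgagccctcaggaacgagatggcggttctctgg
It holds an NRF1 motif, again matched on both strands, and 2 ETS-family motifs, one of them across the start.

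In complex III, which hands electrons from ubiquinol to cytochrome c, UQCRC2 had a peak in all 4 libraries of H4K12la and HDAC1. UQCRC2, a core protein gene (chromosome 16, 21953361 to 21983660), had 4.52-fold and 4.13-fold of H4K12la against 6.50-fold and 6.83-fold of HDAC1. UQCRB, whose product lies near the ubiquinone-binding site, had the highest H4K12la value of all 87 members by the lower replicate, at 6.06-fold and 4.88-fold, rank 211 of 2077 called genes. It had HDAC1 in replicate 1 only (4.83-fold). UQCRQ had H4K12la in replicate 2 only (4.64-fold) and UQCR11 HDAC1 in replicate 1 only (3.62-fold). The other 5 genes of the complex, UQCRC1, UQCRFS1, UQCRH, UQCR10 and the intronless copy UQCRHL, had no gene-end peak in any library. The UQCRC2 promoter (chr16:21953111-21953410, plus strand) is shown because 4 peaks fall on it.
UQCRC2: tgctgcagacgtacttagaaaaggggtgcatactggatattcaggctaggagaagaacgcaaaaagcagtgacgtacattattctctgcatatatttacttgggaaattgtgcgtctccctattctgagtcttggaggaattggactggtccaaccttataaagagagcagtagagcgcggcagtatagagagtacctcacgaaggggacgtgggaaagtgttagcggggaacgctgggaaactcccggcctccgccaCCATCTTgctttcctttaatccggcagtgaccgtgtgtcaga
It holds 1 YY1 motif just after the start and none of the other motifs.

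Complex IV, cytochrome c oxidase, had the lowest share of genes with a gene-end peak among the complexes: 15 of 17 genes had none in any library. Over the whole protein-coding set 29.1% carried such a peak, against 11.8% here, and this gap was not tested. H4K12la and HDAC1 were called at 1 and 0 of the 17, where 10.5% and 8.18% of all genes were called. With so few genes these counts are no result about the complex. COX5B (chromosome 2, 97646062 to 97648383) was its only called gene, with H4K12la at 3.13-fold and 3.51-fold in replicates 1 and 2. Those peaks did not overlap: the replicate 1 peak lay at 169 to 565 bp from the start and the replicate 2 peak at -743 to -65 bp. COX5A had 1 replicate of each target, H4K12la at 4.32-fold and HDAC1 at 5.02-fold, both in replicate 2. The 6 isoform genes used in particular tissues such as muscle, lung or testis (COX4I2, COX6A2, COX6B2, COX7A1, COX7B2 and COX8C) had none, and neither did 8 of 10 of the other subunit genes, among them COX4I1, COX6C and COX7C. The COX5B promoter (chr2:97645812-97646111, plus strand) is shown as that of the only called gene of the complex; the replicate 2 peak reaches into it, and the replicate 1 peak lies wholly beyond its end.
COX5B: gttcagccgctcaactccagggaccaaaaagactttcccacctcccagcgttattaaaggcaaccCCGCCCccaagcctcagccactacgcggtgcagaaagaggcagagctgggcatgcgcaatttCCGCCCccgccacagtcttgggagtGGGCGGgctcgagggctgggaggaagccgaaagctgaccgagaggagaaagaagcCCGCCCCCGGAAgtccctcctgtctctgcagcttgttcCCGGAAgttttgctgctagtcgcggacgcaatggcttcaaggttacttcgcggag
It holds 2 ETS-family and 4 SP-family motifs, with an SP and an ETS match directly adjoining.

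Some genes of complexes IV and V were missed because their peaks lay at a start inside the annotated gene. COX7A2L, whose product joins complexes III and IV into a supercomplex, had H4K12la at 4.40-fold and 5.38-fold and HDAC1 at 6.52-fold and 5.89-fold. The summits lay at -283 to -61 bp from an annotated inner start, and 7457 to 7679 bp from the outermost one. COX7A2 had H4K12la at 4.37-fold and 4.45-fold, with summits at -116 and 281 bp from an inner start. ATP5F1A, the alpha subunit gene of the ATP synthase, had H4K12la at 3.76-fold and 5.64-fold, and ATP5MC2, a c-ring gene, at 4.45-fold and 4.73-fold, all within 204 bp after an inner start. With inner starts added to gene ends, a rule chosen after the data were seen, H4K12la was called at 23 of 87 members (11.4% of all genes) and HDAC1 at 11 (8.81% of all genes). Complex IV then had 3 of 17 genes with H4K12la and 1 of 17 with HDAC1. Starts were known for 70 of the 87 members, through the promoter table.

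In complex V, the ATP synthase, H4K12la was called at 6 and HDAC1 at 4 of 20 genes, against 10.5% and 8.18% of all genes. Its place among the complexes followed the threshold. With -log10 q of 5 or more H4K12la was called at 4 of 20 genes, against 2 of 9 in complex III. With 1189 peaks from each list it was called at 0 of 20. Of all genes, 6.11% and 1.16% were called for H4K12la under these rules. The peripheral stalk holds the catalytic head still while the rotor turns, and 3 of its 4 genes were called for H4K12la and for HDAC1. With 4 genes this share is no result about the stalk, and it was not tested. The peaks of ATP5PB and ATP5PF also lie at the ends of WDR77 and GABPA. With -log10 q of 5 or more ATP5PB and ATP5PF lost H4K12la and ATP5PF lost HDAC1, and with 1189 peaks from each list none of the stalk genes was called. ATP5PB, subunit b (chromosome 1, 111449464 to 111462773), had H4K12la at 3.02-fold and 3.97-fold and HDAC1 at 5.78-fold and 5.72-fold. ATP5PD, subunit d, had H4K12la at 3.82-fold and 4.72-fold and HDAC1 at 4.43-fold and 4.22-fold. ATP5PF, coupling factor 6, had H4K12la at 4.13-fold and 2.78-fold and HDAC1 at 5.37-fold and 3.93-fold; its 2.78-fold was the lowest H4K12la value among the called members. The remaining stalk gene, ATP5PO, had H4K12la in replicate 2 only (4.78-fold).

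In the rotor, ATP5MC3, a c-ring gene, had H4K12la at 4.61-fold and 7.16-fold, the widest gap between replicates among the called members, and HDAC1 in replicate 1 only (5.59-fold). ATP5MC1, which encodes the same mature c subunit, had HDAC1 at 4.30-fold and 4.54-fold and no H4K12la. ATP5F1C, the central stalk subunit gamma, had H4K12la at 4.69-fold and 4.02-fold and HDAC1 in replicate 1 only (3.42-fold). ATP5F1E, subunit epsilon, had 1 replicate of each target, H4K12la at 3.38-fold in replicate 2 and HDAC1 at 4.77-fold in replicate 1. The remaining rotor genes, ATP5F1D (subunit delta) and ATP5MC2 of the c-ring, had no gene-end peak in any library. Among the small membrane subunits, ATP5MK had H4K12la at 3.69-fold and 3.78-fold and HDAC1 in replicate 1 only (4.60-fold), and ATP5MG had H4K12la in replicate 2 only (4.79-fold). The inhibitor gene ATP5IF1 had HDAC1 in replicate 1 only (3.11-fold). ATP5F1A and ATP5F1B, for the alpha and beta subunits of the catalytic head, had no gene-end peak; both replicates of HDAC1 lay 1058 bp from an end of ATP5F1B and those of H4K12la 1517 and 1339 bp from it, just outside the windows. The promoters of ATP5F1C (chr10:7787927-7788226, plus strand) and ATP5PB (chr1:111449214-111449513, plus strand) are shown as those with the highest lower value of H4K12la and of HDAC1 in complex V among genes with a promoter sequence in the table.
ATP5F1C: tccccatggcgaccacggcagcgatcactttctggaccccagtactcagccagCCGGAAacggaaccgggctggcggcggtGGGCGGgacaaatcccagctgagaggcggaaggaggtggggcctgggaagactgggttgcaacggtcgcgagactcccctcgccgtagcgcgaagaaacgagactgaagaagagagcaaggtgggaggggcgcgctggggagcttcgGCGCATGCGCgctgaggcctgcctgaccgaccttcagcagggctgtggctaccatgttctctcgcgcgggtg
ATP5PB: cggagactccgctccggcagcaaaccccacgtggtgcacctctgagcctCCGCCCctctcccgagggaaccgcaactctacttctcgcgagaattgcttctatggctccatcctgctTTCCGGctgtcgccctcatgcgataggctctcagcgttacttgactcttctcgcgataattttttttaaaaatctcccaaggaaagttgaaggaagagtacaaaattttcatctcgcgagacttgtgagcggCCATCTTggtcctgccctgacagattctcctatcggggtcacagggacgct
The first holds 1 ETS-family, 1 SP-family and 1 NRF1 motif, matched on both strands, and the second 1 ETS-family, 1 YY1 and 1 SP-family motif, the YY1 match lying across the start.

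Replicate support at these genes differed by target in the direction of the longer list. Of the 21 members with H4K12la in replicate 1, 19 (90.5%) also had it in replicate 2, and these were 55.9% of the 34 in replicate 2. Over all genes the shares were 77.6% and 53.6%. For HDAC1, 47.6% of the replicate 1 members were found in replicate 2 and 83.3% of the replicate 2 members in replicate 1, against 55.1% and 81.1% of all genes. The H4K12la peaks of replicate 2 alone, at 15 members, had a median −log10 q of 5.24 and the peaks of called members 7.44 in the same library. Their median folds were 4.21 and 3.97, so members with replicate 2 alone were not lower in fold. Over all genes those with replicate 2 alone were lower, at 3.81 against 4.27. At the 11 members with HDAC1 in replicate 1 alone the median −log10 q was 6.18, against 8.82 at called members. The median folds there were 4.60 and 5.01. At the 2 members with HDAC1 in replicate 2 alone the median fold was 5.15, against 4.54 at called members.

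The fold values of called members were ordinary for their libraries. The median of the lower replicate was 3.68-fold at members with H4K12la, against 3.84-fold at all called genes, and 4.51-fold at members with HDAC1, against 4.63-fold. By that value UQCRB, NDUFB1 and ATP5MC3 stood in the upper 10.2% to 15.5% of H4K12la genes, and ATP5PB, NDUFC1 and ATP5PF ranked 1929, 1948 and 2028 of 2077. NDUFA11 and UQCRC2 ranked 42 and 124 of 1626 HDAC1 genes, and the next member, ATP5PB, ranked 286. For H4K12la the replicates' values differed by a median of 0.668-fold at called members and 0.503-fold at all called genes. For HDAC1 the median was 0.223-fold at members, below the 0.655-fold at all called genes; this was not tested. Spearman's rho of the replicates' folds was 0.391 over the 19 H4K12la members and 0.612 over the 10 HDAC1 members, descriptions across genes that share the same libraries; over all called genes it was 0.583 and 0.690.

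**Figure D3:**
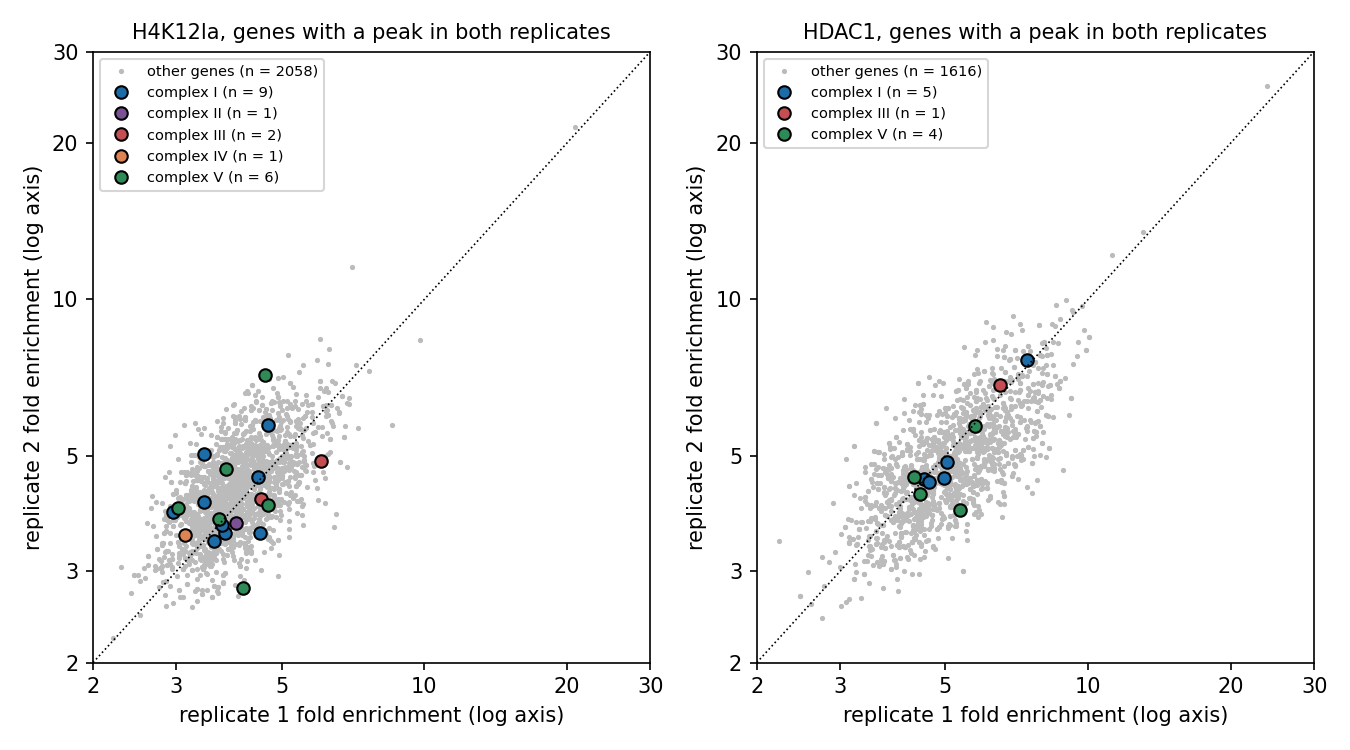
Fold enrichment of the strongest gene-end peak in replicate 1 (horizontal, log axis) and replicate 2 (vertical, log axis) at genes with a peak in both, for H4K12la (left) and HDAC1 (right), with members coloured by complex, other genes in grey and the dotted line at equal values. Members lie within the cloud of other genes, and the HDAC1 members lie closer to the line than the H4K12la members, with median differences of 0.223-fold and 0.668-fold.

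The summits of peaks at members lay mostly near annotated starts, which is in part set by counting only peaks within 1 kb of a gene end. Where the start was known, the summit lay within 500 bp of an annotated start at 16 of 17 and 25 of 29 members for H4K12la in replicates 1 and 2, and at 15 of 19 and 10 of 12 for HDAC1. Over all genes the shares were 74.9% and 74.8% for H4K12la and 81.1% and 81.9% for HDAC1. The strongest peak covered the start at 10 of 17 and 19 of 29 members for H4K12la in replicates 1 and 2. For HDAC1 it did so at 9 of 19 and 8 of 12, and this count was not made over all genes. HDAC1 summits lay before the start at 11 of 19 and 9 of 12 members in replicates 1 and 2, and after it at 8 of 19 and 3 of 12, against 40.5% and 32.2% of all genes. H4K12la summits lay after the start at 6 of 17 and 17 of 29 members, against 56.3% and 54.9% of all genes; these sides were not tested. Both replicates' peaks overlapped at 18 of 19 called H4K12la members, all but COX5B, and at 10 of 10 HDAC1 members. The summits of both replicates lay a median of 174 bp apart for H4K12la and 74.0 bp for HDAC1. At the 6 members called for both targets, the H4K12la and HDAC1 peaks overlapped in every pair of libraries at 5, and in 3 of 4 pairs at ATP5PB. The nearest summits of H4K12la and HDAC1 lay from 10 bp apart, at ATP5PF, to 210 bp, at NDUFA6.

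**Figure D4:**
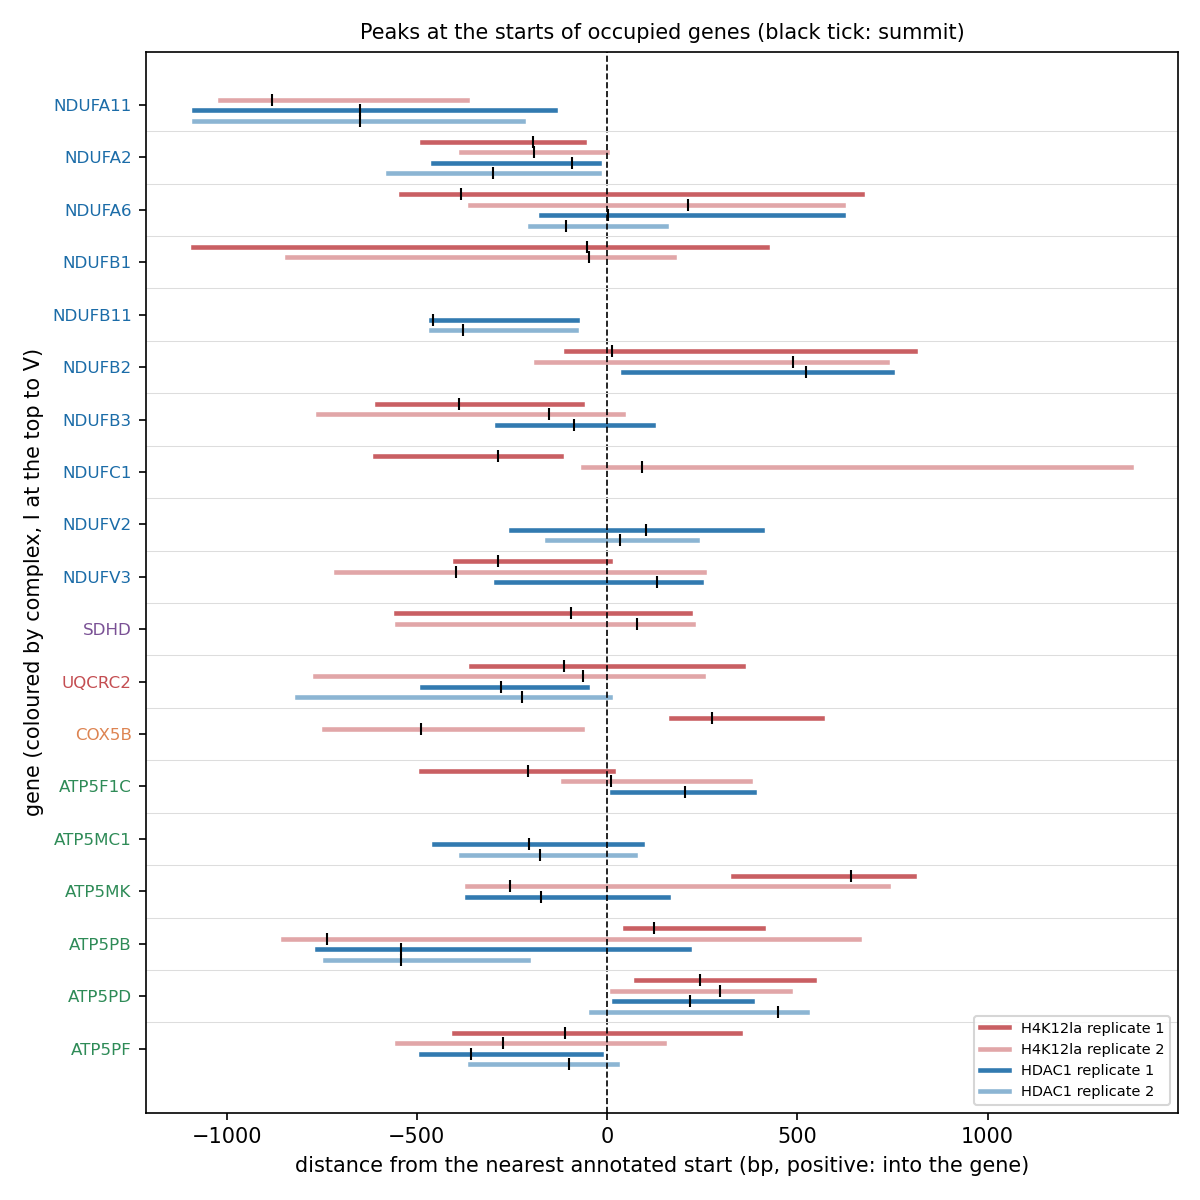
Extent of the strongest gene-end peak (lines) and its summit (black ticks) relative to the nearest annotated start, in bp with positive values into the gene, at the called members with a known start, for H4K12la (red) and HDAC1 (blue) with the second replicate in the paler shade. Lines of a target overlap in every row but COX5B and NDUFC1, whose replicates are drawn from different annotated starts at NDUFC1 although the peaks themselves overlap; in the COX5B row they lie on both sides of the start, and in the NDUFA11 row all lie before it.

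A peak at these genes was often also a peak of the gene next door. Of the 19 members with called H4K12la, 11 (57.9%) shared the peak in both replicates with the end of another protein-coding gene, against 36.5% of all called genes; for HDAC1 it was 5 of 10 (50%) against 44.5%. Where both strands were known, 8 of 9 such H4K12la pairs and 5 of 6 HDAC1 pairs were divergent, and 7 and 3 of these had starts within 300 bp of each other. Such a peak cannot be assigned to either gene of a pair. ATP5PF shared its peaks with GABPA, which encodes the ETS-family subunit of GABP, 68 bp from start to start. NDUFB5 shared its H4K12la peak with MRPL47, a mitochondrial ribosomal protein gene, and SDHD with TIMM8B, whose product escorts proteins into the inner membrane. ATP5PB stood beside WDR77, NDUFB1 beside CPSF2, ATP5MK beside PDCD11, ATP5F1C beside KIN, and NDUFC1 beside NAA15. NDUFB3 stood beside HYCC2, NDUFV3 beside WDR4, and NDUFA2 beside IK, a splicing factor gene, and the convergent TMCO6. For HDAC1, NDUFA11 stood beside VMAC, with 1082 bp between starts, and NDUFB11 beside RBM10, a splicing regulator gene.

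Across the promoter table the searched motifs were found at more starts of members than of all protein-coding genes. Members had 83 starts at 70 genes, and all protein-coding genes 22199 starts at 15843. The ETS-family motif was present at 38.6% of member starts, against 21.2% of all. The YY1 motif was present at 22.9%, against 6.04%, the NRF1 motif at 37.3%, against 21.5%, and the SP-family motif at 62.7%, against 56.3%. Of 19 starts of members with called H4K12la, 9 held the ETS-family, 5 the YY1, 7 the NRF1 and 15 the SP-family motif. Of 11 starts of members with called HDAC1, 4 held the ETS-family, 5 the YY1, 3 the NRF1 and 7 the SP-family motif. Of 41 starts of members with no gene-end peak in any library, 15 held the ETS-family, 6 the YY1, 14 the NRF1 and 23 the SP-family motif. This last set includes COX7A2L, COX7A2, ATP5MC2 and ATP5F1A, which had H4K12la peaks in both replicates at an inner start. These counts describe letters in the window, were not tested, and do not show binding.

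Some genes that build or regulate the complexes were also called for H4K12la and HDAC1. Their shares were not tested against those of the subunits or of all genes. Of 53 assembly factor genes, whose products build the complexes without staying in them, H4K12la was called at 16 (30.2%) and HDAC1 at 10 (18.9%). The shares of all protein-coding genes were 10.5% and 8.18%. TMEM242, which helps build the c-ring, had H4K12la at 5.18-fold and 3.61-fold and HDAC1 at 5.18-fold and 5.73-fold. UQCC6, of complex III assembly, had H4K12la at 4.44-fold and 5.08-fold and HDAC1 at 4.44-fold and 4.34-fold, and COX20 and FOXRED1 were also called for both. A further list held 10 genes for transcription factors and cofactors of nuclear subunit genes or of mitochondrial DNA, the latter being TFAM, TFB2M and POLRMT. Of these 10, H4K12la was called at GABPA, GABPB1, TFAM and TFB2M (40%) and HDAC1 at GABPA, TFAM and TFB2M (30%). These shares stand against the same 10.5% and 8.18% of all genes. The GABPA peaks are those already counted above for ATP5PF, and they cannot be assigned to either gene. TFAM, which packages mitochondrial DNA and helps start its transcription, had H4K12la at 5.21-fold and 5.46-fold and HDAC1 at 4.62-fold and 4.62-fold. ESRRA had H4K12la in replicate 2 only (3.43-fold) and HDAC1 in replicate 1 only (3.84-fold). NRF1, YY1, PPARGC1A, PPARGC1B and POLRMT had no gene-end peak in any library. Of the subunit genes outside the symbol rule, COXFA4, formerly NDUFA4 and a complex IV subunit, had H4K12la at 5.40-fold and 4.995-fold and HDAC1 in replicate 2 only (7.78-fold), while CYC1 and NDUFAB1 had none. CYCS, the electron carrier cytochrome c, had HDAC1 at 3.79-fold and 4.52-fold and no H4K12la.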

How the data were processed

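CUT&Tag peak lists of 6 HepG2 libraries were used. FastQC, Bowtie2, MACS2, deepTools and build hg38 are named in the submitters' processing notes. Their versions, settings and any control library are not given in sources used here. The deposited lists hold, per peak, a fold enrichment (a ratio to that library's background, with no scaling between libraries), the -log10 of the q value, and the summit's offset. All deposited peaks have a -log10 q above 2, that is, a q value below 0.01.

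Peaks on 24 chromosomes were joined to RefSeq genes of GRCh38.p14, the same build; 718 entries of unplaced or alternate sequences were left out. A peak counted with 1 bp within 1 kb of a gene end, and the highest fold was taken. Replicates came from the titles. Shares of members were compared over libraries by exact permutation tests. Alternatives were windows of 500 bp and 2 kb, -log10 q of 5 or more, lists of equal length (1189 peaks), the summit in the window, starts in place of ends, fewer members, either replicate and each replicate alone. Every called member is named, with the strongest of those with 1 replicate. Not every gene examined is reported here by name. Members, lists and motifs were chosen with earlier results of these data known. Scripts used Python 3.11.15, numpy 2.4.6, pandas 2.3.3, scipy 1.17.1 and matplotlib 3.10.9 and were tested on simulated data. Intervals and limits cover counting error only.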

Additional observations from a re-analysis of the deposited data

Results flagged for a closer look

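The 13 subunits of oxidative phosphorylation that are encoded in the mitochondrial genome lie outside the gene rule used above. Every library had called peaks there, and no control library was used here to set them against. Peaks overlapped 6 and 6 of the 13 subunit genes in H4K12la replicates 1 and 2, 9 and 8 in HDAC1, and 8 and 8 in ENO1. They covered 40.1% and 39.7% of the mitochondrial genome for H4K12la, 64.7% and 64.4% for HDAC1, and 62.4% and 60.5% for ENO1. Their fold enrichment was low, from 1.20-fold to 2.999-fold over all 6 libraries. ND2, COX2, ATP8 and ND3 were overlapped in no library. ENO1 had no peak at any of the 87 nuclear members' ends, and its mitochondrial peaks overlapped 8 subunit genes in both replicates. Peaks of this kind were found with every target, so they were not particular to ENO1. What gave rise to them was not tested.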

How the results depend on the processing

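H4K12la exceeded HDAC1 in the mean share of members with a peak under each alternative that kept both replicates (by 2.30 to 14.2 percentage points), but not in replicate 1 alone, and the counts followed the peak threshold. With -log10 q of 5 or more, H4K12la was called at 9 members (6.11% of all genes) and HDAC1 at 8 (6.31%). With 1189 peaks from each list, H4K12la and HDAC1 were called at 2 members each (1.16% and 1.47% of all genes), NDUFB1 and UQCRC2 for H4K12la and NDUFA11 and UQCRC2 for HDAC1. With a peak in at least 1 replicate they were called at 36 and 23 members (22.5% and 16.8% of all genes). Single replicates gave 21 to 34 members for H4K12la and 12 to 21 for HDAC1, and the difference of H4K12la minus HDAC1 was 0 to 25.3 percentage points, with 0 from replicate 1 alone and 25.3 from replicate 2 alone. H4K12la minus ENO1 was 24.1 to 39.1 points, and HDAC1 minus ENO1 13.8 to 24.1. Windows of 500 bp or 2 kb, the summit rule and 81 stricter members gave 18 to 20 members for H4K12la and 10 or 11 for HDAC1. The shares of all genes under these rules were 9.45% to 11.2% for H4K12la and 7.45% to 8.86% for HDAC1. Counting starts only (70 members) gave 19 and 11, against 9.42% and 7.09% of all genes, whether or not their start was known. Starts with gene ends gave 23 and 11, against 11.4% and 8.81% of all genes. Differences over libraries were not computed for these. ENO1 was at 0 members under each of them.

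The replicate numbers were not taken to pair the libraries: deviations of same-numbered libraries over all genes correlated between -0.0285 and -0.00484, and over the members at 0.0998 for H4K12la and HDAC1. With the number as a block the difference of H4K12la minus HDAC1 stayed at 12.6 points (exact permutation p = 1) and those against ENO1 at 31.6 and 19.0 points (exact p = 0.5 each, the smallest a block of 2 allows). A separate count of NDUFA4 in complex IV was not run, since the gene table lists it as COXFA4, outside the rule. Of the symbols that match the rule, 183 belong to pseudogenes and 2 to transcribed pseudogenes, and sharing of reads with such copies was not tested.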

Other observations

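Among the 44 members without a gene-end peak, NDUFA10 had H4K12la inside the gene in both replicates, 35021 and 35016 bp from its nearest end, and it was also the member nearest to an ENO1 peak in replicate 1. ATP5F1B joined the called genes of both targets when windows were widened to 2 kb. NDUFS8 had an HDAC1 peak 1835 bp from an end in replicate 1 and its nearest at 53074 bp in replicate 2. Members were short genes, with a median length of 9.24 kb, against 24.5 kb for all protein-coding genes. Called H4K12la members had a median length of 9.94 kb and members without a gene-end peak 7.59 kb. Over all genes, called H4K12la genes had a median of 42.1 kb and genes without a gene-end peak 21.1 kb.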
